A study of Mus musculus with 19 samples.

Results

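Mest, Cdkn1c, Gnas, H19, Dlk1 and Peg3 are imprinted genes of the mouse, and every probe set whose array annotation gives one of these symbols was taken. These were 10 of the 12488 probe sets, 3 each for Gnas and Peg3 and 1 each for the other genes. The H19 probe set carries a second symbol, Mir675, for the microRNA gene that lies within H19. RNA had been measured on 19 Affymetrix arrays in green fluorescent cells sorted from transgenic mice whose reporter is driven by a glial promoter. Every sample carries the reporter, so cells outside its activity were not measured and no wild-type sort is among them. At E9.5 the cells came from trunk (3 arrays) and are labelled neural crest stem cells. At E12 (3), E14 (3), E16 (4), E18 (3) and birth (P0, 3) they came from sciatic nerve, where the labels name Schwann cell precursors first and young Schwann cells later. No genotype other than the reporter, and no treatment, is stated. Each value is a model-based index of brightness (intensity), not on a log scale. Values of different probe sets are not on a common scale, so levels are compared between stages within a probe set. The exception is sums over markers, in which the brightest probe sets weigh most.

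Imprinted genes are transcribed mainly or only from the allele of 1 parent, according to DNA methylation laid down in the egg or the sperm. Many of them govern fetal growth and are highly transcribed in embryonic tissues, and a number are known to decline after birth. Mest, Dlk1 and Peg3 are transcribed from the paternal allele, H19 and Cdkn1c from the maternal allele, and Gnas gives transcripts of both kinds from separate promoters. The arrays do not distinguish alleles, so none of the values bears on imprinting itself. Cdkn1c blocks cyclin-dependent kinases, and in cultured rat Schwann cells its loss is known to promote differentiation. The question addressed is which of the 6 genes were lower by birth and which kept their level.

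Both Mest and H19 host microRNAs, whose sequences are shown because the host transcripts are the ones measured and the microRNAs themselves were not. The mature sequences, from RefSeq on GRCm38.p6, have the seed (bases 2 to 8) in capitals. Those of miR-335 lie in Mest at chr6:30741314-30741336 and chr6:30741354-30741375 on the plus strand. Those of miR-675 lie in H19 at chr7:142577112-142577133 and chr7:142577078-142577099 on the minus strand. Each of the 4 seeds occurs in 1 of 1738 mature mouse microRNAs of the same table, so none is shared among them.
mmu-miR-335-5p: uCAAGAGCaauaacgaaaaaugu
mmu-miR-335-3p: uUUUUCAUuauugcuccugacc
mmu-miR-675-5p: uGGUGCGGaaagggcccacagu
mmu-miR-675-3p: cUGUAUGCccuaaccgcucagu

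The median index per array was 174 to 207. P0 was the least uniform stage, with a lowest rank correlation between its arrays of 0.894, followed by E16 at 0.928, while the other stages lay between 0.952 and 0.964. P0 replicate 1 was closest to E16 replicate 1 among all arrays, P0 replicate 4 to E16 replicate 4 and P0 replicate 3 to E18 replicate 3. The ratio of 3' to 5' signal of the GAPDH control is higher where the amplified RNA is shorter. It was 2.33 to 3.41 at E9.5, 3.18 to 4.53 at E12, 4.11 to 4.83 at E18 and 4.69 to 7.69 at P0. Over all arrays it was 2.33 to 9.12. Markers of the labelled cell type were looked at beside those of other types. Of 9 markers of Schwann cells and their precursors, 7 were above the floor of 68.5 (the 25th percentile of all values) on all 19 arrays. Sox10, the transcription factor of crest and glia, Erbb3, a neuregulin receptor, Egr2, a transcription factor of myelination, and Pmp22, a myelin protein, were above it on all 19, and S100b on 3. Also above it on all 19 were 11 of 16 skeletal muscle markers, 7 of 9 erythroid and 4 of 5 of cartilage and bone. Passing the floor therefore does not by itself show the cell type. Of 16 fibroblast markers, 9 were above the floor on all 19 arrays, Col1a2, Col3a1 and Postn among them, and 7 on some arrays, down to Fap on 1. The summed level of these 16 was 2835 to 3910 at E9.5, 13515 to 16314 at E12, 20405 to 28004 at E14, 28437 to 35452 at E16, 27241 to 32378 at E18 and 23720 to 31470 at P0. In this sum Col1a2, Postn, Col3a1 and Col1a1 weigh most, with means of 5578, 4844, 4479 and 3958. The next highest mean was 1369, for Fbln2. In P0 against E9.5, 6 of 15 fibroblast markers tested were higher, beside 12.1% of all probe sets, with a median log2 change of 0.43.

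Mest fell before birth. Mest encodes a protein of the alpha/beta-hydrolase family and is known for high transcription in embryonic mesoderm. At E9.5 its 3 arrays read 3189, 3555 and 2740, at E12 3575, 3137 and 3840, and at E14 3497, 3732 and 4296. At E16 they read 1525, 1772, 1419 and 1172, at E18 627, 639 and 360, and at P0 243, 151 and 666. The first 3 stages overlap, E16 lies below all of them, E18 lies below E16, and at P0 replicate 4 lies above the E18 arrays while the 2 others lie below them. Mean levels were 3517 ± 355 at E12, 542 ± 158 at E18 and 353 ± 275 at P0 (SD, n = 3 each).

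Against E12, Mest was 6.68-fold lower at E18 (log2 change -2.74, SE 0.37, adjusted p = 0.000101) and 12.1-fold lower at P0 (log2 change -3.59, SE 0.37, adjusted p = 5.33e-06), by limma over all probe sets with Benjamini-Hochberg adjustment. Within lots, which are numbered in the labels, the P0 change was -3.88 (log2) in lot 1 and -2.53 in lot 4, and the E18 change -2.51 in lot 1 and -2.29 in lot 2. Against E9.5 the fall at P0 was 10.8-fold (adjusted p = 4.11e-06). One array sets the size of both P0 values, since without P0 replicate 4 they were 18.3-fold and 16.4-fold. That array has the lowest GAPDH ratio of the P0 arrays, at 4.69, where replicates 1 and 3 have 7.69 and 6.80. Leaving it out therefore keeps the P0 arrays with the higher ratios. The part of RNA quality in its higher Mest level was not tested. All 3 calls held under each of 30 alternative settings. In these sorted bulk samples, fewer cells of a type and less RNA per cell cannot be told apart.

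No single step carried the fall of Mest past the threshold. E16 against E14 gave the first step down, 2.63-fold lower (log2 change -1.39, SE 0.35), with no overlap between the arrays and an adjusted p of 0.0569. That step passed the threshold under 10 of 30 alternatives, with adjusted p-values from 0.00139 to 0.208. E18 against E16 gave a log2 change of -1.47 (adjusted p = 0.261), again without overlap, and P0 against E18 gave -0.85 (adjusted p = 0.394) with overlap. Without P0 replicate 4 the adjusted p-values of the 3 steps were 0.00139, 0.00656 and 0.00573. The first 2 steps hold no P0 array, and their log2 changes stayed at -1.39 and -1.47. All stages share 1 estimate of the spread, which that array enters. With array weights the adjusted p-values of the 3 steps were 0.0055, 0.0036 and 0.00395. Before E16 no step of Mest passed. E12 against E9.5 gave 0.16 (log2, 95% interval -0.63 to 0.95) and E14 against E12 gave 0.13 (-0.66 to 0.92).

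**Figure D1:**
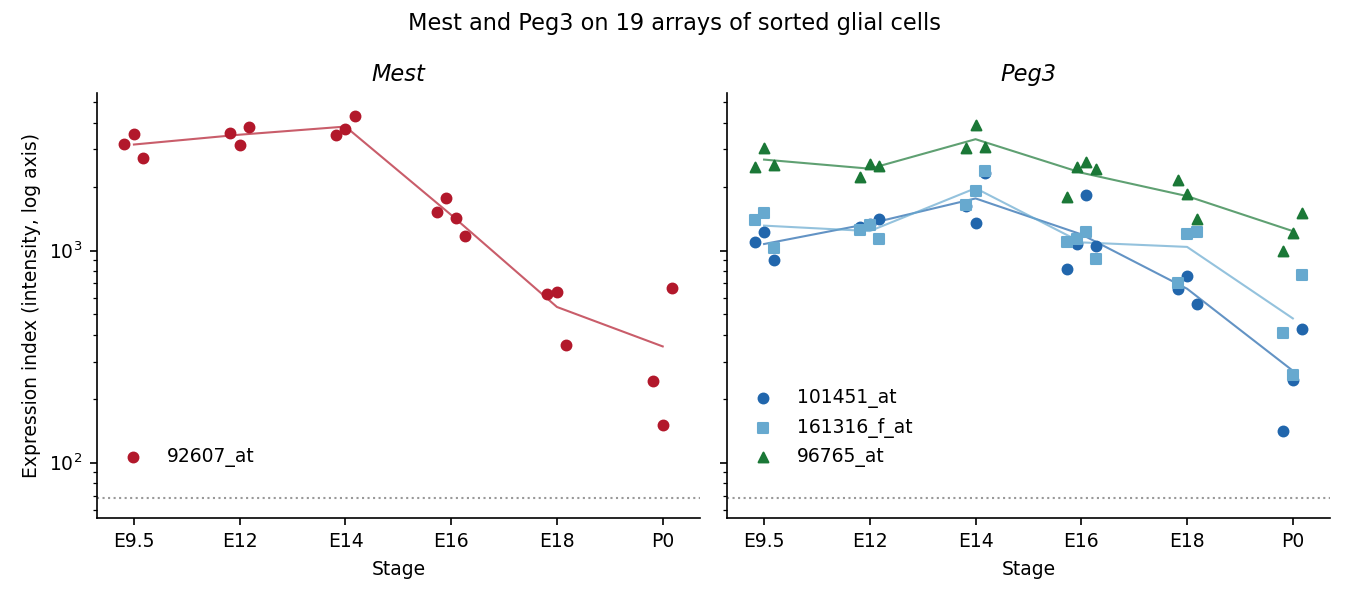
Intensity (log axis) of the Mest probe set and the 3 Peg3 probe sets by stage. Points are arrays, lines join the stage means and the dotted line is the floor of 68.5. Mest lies at 2740 to 4296 through E14 and at 151 to 666 at P0.

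Peg3 was lower by birth as well. Peg3 encodes a large zinc finger protein of the nucleus. On probe set 101451_at the arrays read 1098, 1218 and 906 at E9.5, 1292, 1330 and 1401 at E12, 1619, 1354 and 2310 at E14, 819, 1074, 1829 and 1049 at E16, 660, 762 and 560 at E18, and 140, 245 and 429 at P0. Here P0 lies below every other stage, and E18 lies below all earlier ones. On probe set 96765_at the P0 arrays read 998, 1205 and 1503 and the E12 arrays 2216, 2562 and 2518. On probe set 161316_f_at the P0 arrays read 408, 260 and 769 and the E12 arrays 1245, 1324 and 1138. All 3 probe sets had P0 below E12 on every array. The suffix of 161316_f_at marks probes that may match more than 1 transcript, and no accession is given for it.

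P0 against E12 gave log2 changes of -2.45 for 101451_at (5.47-fold lower, SE 0.34, adjusted p = 9.6e-05), -1.51 for 161316_f_at (2.84-fold lower, SE 0.31, adjusted p = 0.00288) and -0.99 for 96765_at (1.99-fold lower, SE 0.20, adjusted p = 0.00221). The 3 probe sets moved the same way by different amounts. Within lots 1 and 4 the values were -3.20 and -1.71 for 101451_at, -1.61 and -0.57 for 161316_f_at, and -1.15 and -0.74 for 96765_at. The call for 161316_f_at was lost when only the arrays of both stages were fitted (adjusted p = 0.11), and the other calls held in all alternatives. Against E9.5, with the same P0 arrays, the log2 changes were -2.12, -1.58 and -1.13 in the same order of probe sets (adjusted p = 0.000169, 0.000983 and 0.000359).

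At E18, Peg3 had not passed the threshold against E12. The log2 changes were -1.03 for 101451_at (adjusted p = 0.0597, arrays apart), -0.29 for 161316_f_at (adjusted p = 0.659) and -0.45 for 96765_at (adjusted p = 0.172). P0 against E18, the step across birth, gave -1.42, -1.22 and -0.55 in that order, with adjusted p-values of 0.109, 0.133 and 0.289. Without P0 replicate 4, which reads highest of the P0 arrays on all 3 probe sets, that step passed for 101451_at (-1.82, adjusted p = 0.00448) and 161316_f_at (-1.63, adjusted p = 0.00396). It also passed for all 3 with array weights (adjusted p = 0.00198, 0.00229 and 0.0377) and for 101451_at with quantile normalization (0.0392) and 75th percentile scaling (0.0441). The call for 101451_at at E18 against E12 was reached under 6 alternatives. Among them were those without E16 replicate 3 (adjusted p = 0.0395) and without P0 replicates 1 or 4 (adjusted p = 0.0225 and 0.02). Its log2 change stayed at -1.03 without each of those arrays, which belong to neither stage and enter only the shared spread. In the same comparison 96765_at passed with array weights (adjusted p = 0.0094). The difference in timing between Mest and Peg3 was not tested. RNA quality moved with these comparisons, as the GAPDH ratios above show. With that ratio as a covariate, P0 against E12 gave -3.46 for Mest (log2, adjusted p = 8.69e-05) and -2.09, -1.34 and -0.84 for Peg3 (adjusted p = 0.00131, 0.0246 and 0.0227), so those falls were called there too. Against E9.5 the covariate ended the Peg3 calls of 161316_f_at and 96765_at (adjusted p = 0.0761 and 0.0535), and fitting only the stages compared ended that of 161316_f_at (adjusted p = 0.0693).

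The promoter windows of Mest and Peg3, the 2 members called lower at P0 than at E12, are shown as RefSeq gives them on GRCm38.p6. They run from 250 bases before the transcript start to 50 after it, with each CpG in capitals. Methylation of the maternal copy at both promoters is known, and was not measured here. The Mest window lies at chr6:30737800-30738099 on the plus strand and holds 17 CpG, a number that 31.4% of 32851 promoter windows reach or exceed. The Peg3 window lies at chr7:6730370-6730669 on the minus strand and holds 13 CpG, which 37.9% reach or exceed, against a median of 7. Further Mest windows of the table start elsewhere and are not shown.
Mest promoter: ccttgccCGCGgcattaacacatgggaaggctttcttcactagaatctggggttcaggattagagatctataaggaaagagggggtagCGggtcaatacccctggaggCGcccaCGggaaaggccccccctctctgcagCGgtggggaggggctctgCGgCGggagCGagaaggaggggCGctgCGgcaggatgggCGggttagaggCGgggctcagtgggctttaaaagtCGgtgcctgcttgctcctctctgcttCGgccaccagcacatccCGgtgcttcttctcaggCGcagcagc
Peg3 promoter: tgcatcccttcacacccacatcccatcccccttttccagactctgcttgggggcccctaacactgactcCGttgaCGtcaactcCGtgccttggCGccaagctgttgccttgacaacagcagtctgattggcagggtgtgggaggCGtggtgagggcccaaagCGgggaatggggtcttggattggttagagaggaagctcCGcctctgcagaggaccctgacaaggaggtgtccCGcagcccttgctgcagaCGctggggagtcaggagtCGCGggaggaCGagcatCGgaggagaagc

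Cdkn1c rose early, and its arrays at E18 and at birth overlapped those of E12, with a lower E16 between them. Its product binds and blocks the kinases that carry cells into S phase. At E9.5 the arrays read 1938, 2108 and 2487, at E12 6122, 7534 and 7506, at E14 5447, 6168 and 5902, at E16 1887, 5616, 2536 and 3665, at E18 6898, 6745 and 5753, and at P0 4711, 7509 and 8306. The E9.5 arrays lie below every later array other than E16 replicate 1. E12 against E9.5 gave a rise of 3.24-fold (log2 change 1.70, SE 0.30, adjusted p = 0.000847), with 1.66 and 1.84 in lots 1 and 2. Mean levels were 7054 ± 808 at E12 and 2178 ± 281 at E9.5 (SD, n = 3 each). P0 against E9.5 gave 3.07-fold higher (log2 change 1.62, adjusted p = 0.000631), and both calls held in all 30 alternatives. Stage and body region change together between E9.5 and E12 and cannot be told apart. The GAPDH ratio differed too, at 2.33 to 3.41 on the E9.5 arrays and 3.18 to 4.53 on those of E12. A fit with that ratio as a covariate is among the 30 alternatives.

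Between E12 and birth Cdkn1c differed little at the ends and more in the middle. P0 against E12 gave a log2 change of -0.08 with a 95% interval of -0.71 to 0.55, and E18 against E12 gave -0.12 with an interval of -0.76 to 0.51. These intervals leave room for a modest change either way and exclude a fall of the size seen for Mest. E16 was the low stage, at 3426 ± 1634 (SD, n = 4), with arrays from 1887 to 5616. The SD was larger at P0, at 6842 ± 1888 (SD, n = 3). E16 against E14 gave -0.89 (adjusted p = 0.169), and 0.0168 as adjusted p without E16 replicate 2, the highest of the 4 arrays. E18 against E16 gave 1.03 (adjusted p = 0.419) with no overlap between arrays. Both steps passed without E16 replicates 1 and 2 and P0 replicate 1 (adjusted p = 0.0136 and 0.0382).

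Gnas stayed within a narrow range. It encodes the alpha subunit of the stimulatory G protein, which couples receptors to adenylyl cyclase. On probe set 93271_s_at the arrays read 5345, 6077 and 7043 at E9.5, 7568, 8079 and 8211 at E12, 8087, 8763 and 6692 at E14, 7370, 8789, 7483 and 8333 at E16, 8067, 6885 and 6724 at E18, and 6132, 8298 and 7624 at P0. All neighbouring stages in the order of mean levels overlap. P0 against E12 gave a log2 change of -0.12 (95% interval -0.45 to 0.20) and E18 against E12 gave -0.14 (-0.47 to 0.18), while E12 against E9.5 gave 0.38 (0.05 to 0.70, adjusted p = 0.126, and 0.0144 with quantile normalization and 0.028 with array weights). Probe set 102082_at ranged from 196 to 451 over the 19 arrays, with P0 against E12 at -0.08 (log2, -0.47 to 0.32). Its E12 against E9.5 change of 0.41 missed the threshold (adjusted p = 0.177) and passed it without E9.5 replicate 1 (adjusted p = 0.0426). Probe set 92672_at was below the floor on all 19 arrays, at 9.15 to 53.5, and was not tested. Which of the Gnas transcripts each probe set reads is not given in the files.

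H19 and Dlk1 varied widely between the arrays of some stages. H19 is a non-coding RNA transcribed beside Igf2 from the other parental allele. Its arrays read 2873, 3796 and 3446 at E9.5, 3861, 4613 and 4676 at E12, 4084, 6701 and 5454 at E14, 3588, 6096, 2216 and 4440 at E16, 2565, 4225 and 1533 at E18, and 1485, 1652 and 3676 at P0. The P0 arrays lie below the E12 arrays, with replicate 4 close to them. P0 against E12 gave a log2 change of -1.07 (SE 0.40, 95% interval -1.91 to -0.23, 2.10-fold lower), with -1.38 in lot 1 and -0.35 in lot 4. Its adjusted p of 0.0782 missed the threshold. Without P0 replicate 4 it was 0.011 and with array weights 0.024, and P0 against E9.5 (-0.69, adjusted p = 0.223) passed without that array as well (adjusted p = 0.041). E18 against E12 gave -0.78 (adjusted p = 0.257).

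Dlk1 encodes a membrane protein with EGF-like repeats, related to the ligands of Notch. Its arrays read 255, 455 and 314 at E9.5, 146, 131 and 170 at E12, 262, 594 and 358 at E14, 171, 570, 220 and 448 at E16, 386, 280 and 157 at E18, and 153, 170 and 177 at P0. E12 was the lowest stage and P0 overlapped it. E12 against E9.5 gave -1.16 (log2, SE 0.42) with no overlap and an adjusted p of 0.0823, and passed the threshold under 5 of the alternatives, with adjusted p from 0.00958 to 0.0485 in those. E14 against E12 gave 1.36 (adjusted p = 0.137, and 0.0287 with array weights), again without overlap. P0 against E12 gave 0.16, with a 95% interval of -0.73 to 1.05, and P0 against E9.5 gave a 1.99-fold lower level (adjusted p = 0.091).

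**Figure D2:**
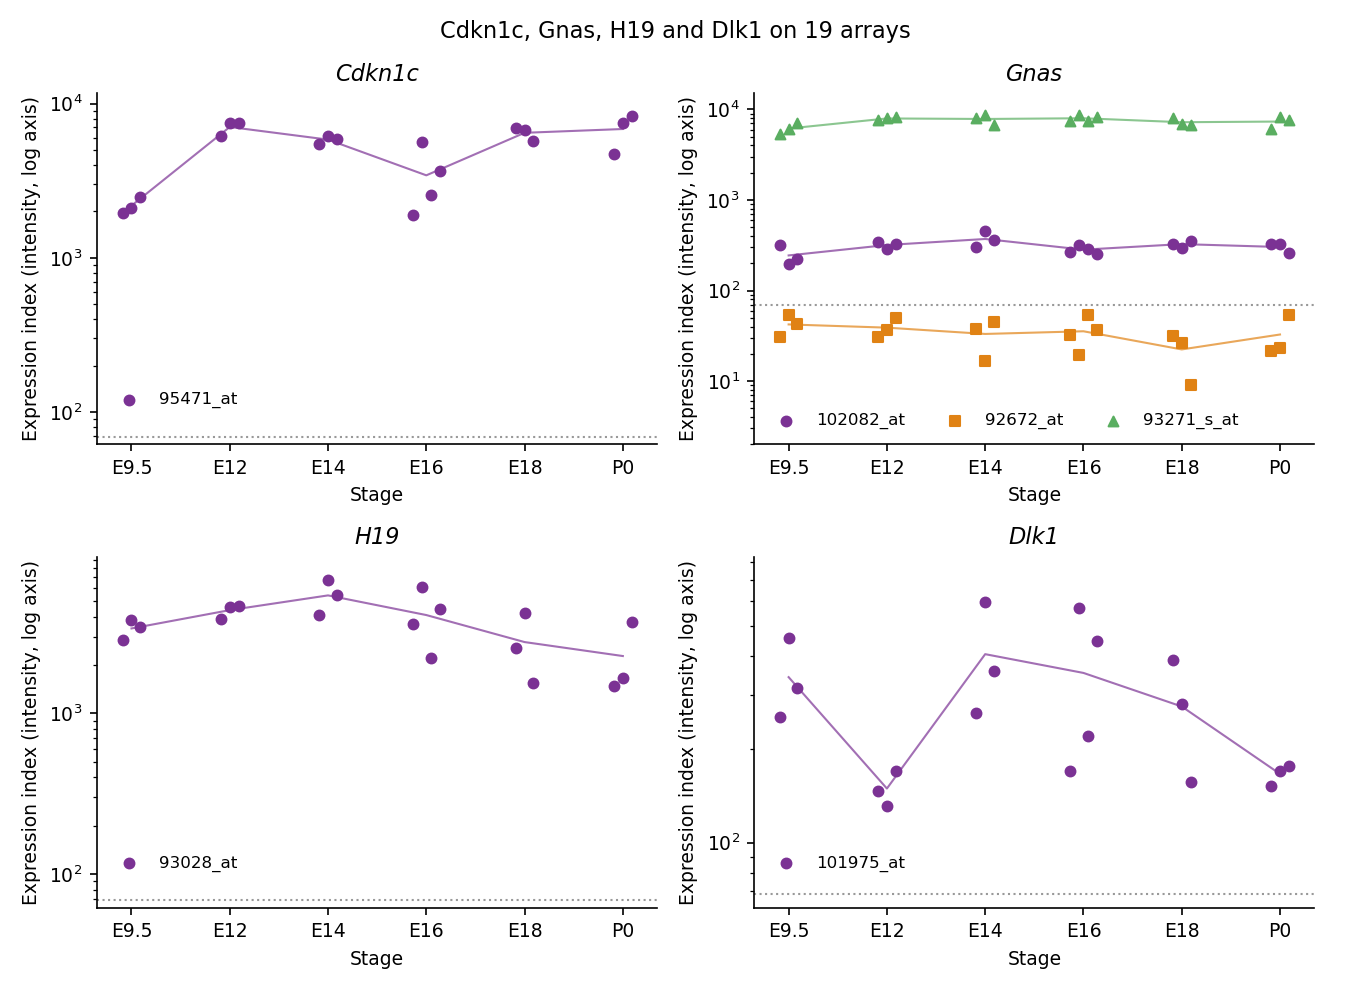
Intensity (log axis) of Cdkn1c, H19, Dlk1 and the Gnas probe sets by stage. Points are arrays, lines join the stage means and the dotted line is the floor of 68.5. Cdkn1c lies at 1938 to 2487 at E9.5 and at 6122 to 7534 at E12, while Gnas 93271_s_at keeps between 5345 and 8789 throughout.

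Counted over the 9 probe sets tested, P0 against E12 called 4, all lower and all of Mest and Peg3, beside 16.4% of the 10414 probe sets tested. The median log2 change of the 9 was -0.99, beside -0.02 over all, and 5 of the 9 kept the arrays of P0 and E12 apart, beside 27.6% of all. Lower calls made up 11.8% of all and higher calls 4.53%. P0 against E9.5 called 5, Cdkn1c higher and the same 4 probe sets lower, beside 28% of all (12.1% higher and 15.9% lower), and 6 of the 9 kept the stages apart, beside 34.3%. E18 against E12 called 1, Mest, beside 11% of all (3.38% higher and 7.6% lower), with a median of -0.29 beside -0.06 and 3 of the 9 apart, beside 36.2%. E12 against E9.5 called 1, Cdkn1c, beside 14.1% of all (9.7% higher and 4.41% lower), with 5 of the 9 apart, beside 36%.

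The 4 steps from E12 to birth called none of the 9 by limma, beside 2.09% of all probe sets in E14 against E12, 1.69% in E16 against E14, 0.0768% in E18 against E16 and 0.125% in P0 against E18. At an unadjusted p under 0.05 there were 3, 5, 3 and 4 of the 9 in the same order of steps, beside 10.9%, 11.2%, 8.07% and 11.7% of all at that threshold. The arrays of both stages were apart for 3, 3, 3 and 1 of the 9, beside 22%, 10.4%, 7.71% and 10.9% of all. The moderated F-test over 6 stages called 5 of 9, namely Mest (adjusted p = 1.78e-06), Cdkn1c (adjusted p = 0.000779) and the 3 Peg3 probe sets, beside 29% of all. The F-test over the 5 nerve stages called the same 5, beside 13.1% of all, with Cdkn1c at an adjusted p of 0.0292 that rose to between 0.05 and 0.0987 under 8 of the alternatives. H19, Dlk1 and both tested Gnas probe sets had adjusted p-values of 0.0687 to 0.289 over 6 stages. Blocks changed some of these calls. Over 6 stages H19 and Dlk1 passed with the lot block (0.0462 and 0.0485) and with the replicate block (0.0207 and 0.0287), and over the nerve stages with the replicate block (0.0253 and 0.043). Without P0 replicate 4, H19 passed in both F-tests (0.0186 over 6 stages and 0.0189 over 5), and without E16 replicate 1 so did Dlk1 (0.0276 and 0.0431). Dlk1 passed both with array weights as well (0.0122 and 0.0153). Over 6 stages, H19 also passed without E16 replicate 3 (0.046) or E18 replicate 2 (0.0441), and Dlk1 without E18 replicate 3 (0.0456). Gnas passed there on 93271_s_at with quantile normalization (0.0287) and on 102082_at without E9.5 replicate 1 (0.0425).

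**Figure D3:**
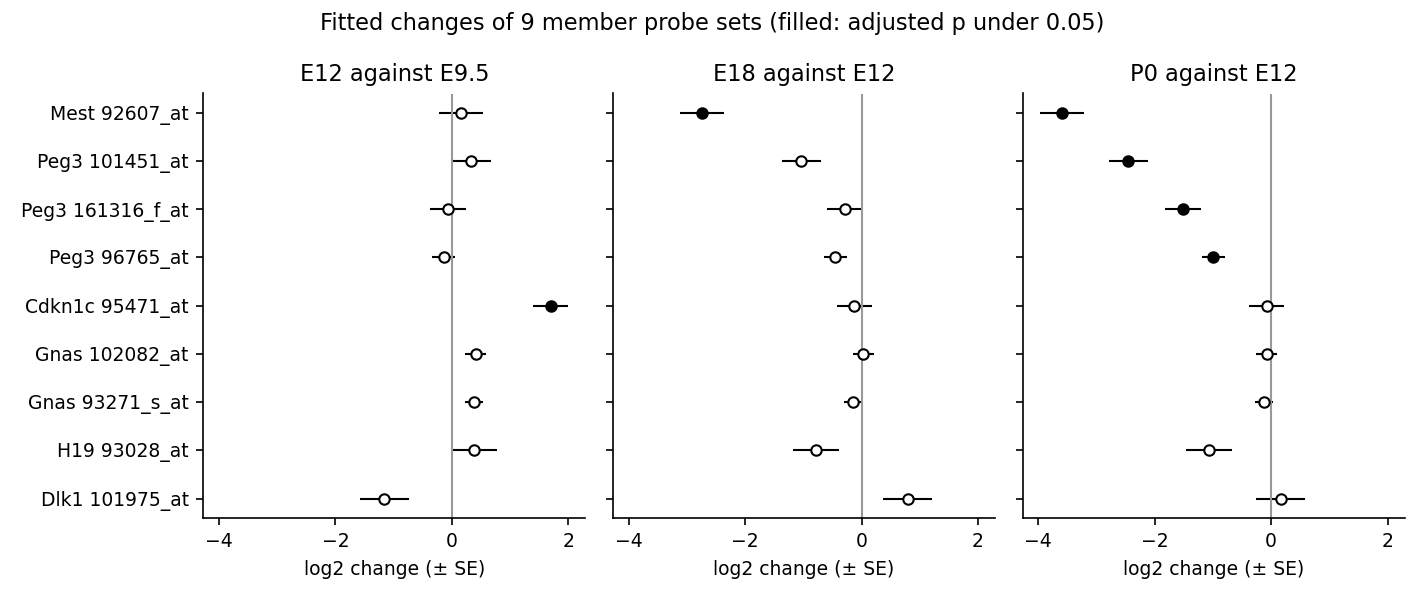
Fitted log2 change of each tested probe set in the comparisons across stages, later stage over earlier stage. Bars are ± 1 SE and filled symbols have an adjusted p under 0.05. Mest and Peg3 lie below 0 in P0 against E12, from -3.59 to -0.99, and Cdkn1c lies at 1.70 in E12 against E9.5.

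Other imprinted genes give the setting. Of lists of genes known to be expressed from the paternal allele (29 genes) or the maternal allele (38 genes) in at least 1 mouse tissue, 16 and 25 were on the array and 13 and 21 were tested, members included. In P0 against E12, 5 of 13 paternal genes were lower, the members Mest and Peg3 among them, with a median log2 change of -0.48. Of 21 maternal genes, 2 were lower and 1 higher, with a median of 0.12. The median over all probe sets was -0.02. Of all probe sets 11.8% were lower and 4.53% higher, and the maternal counts are near those shares. The difference between the lists was not tested.

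Igf2, the fetal insulin-like growth factor, read 308, 399 and 319 at P0 and 4664, 4872 and 3945 at E12. It was 13.2-fold lower at P0 (log2 change -3.72, SE 0.74, adjusted p = 0.00232), a call held in all alternatives. Its E16 arrays lay far apart, at 1642, 6960, 409 and 1343, and E18 against E12 (-1.86, adjusted p = 0.126) did not pass. Magel2, a regulator of ubiquitin ligases, fell 2.71-fold at P0 (adjusted p = 0.000928, held in all alternatives). Nnat, a small membrane protein of fetal tissue, fell at least 6.67-fold at P0 (adjusted p = 0.00202) and at least 7.94-fold at E18 (adjusted p = 0.00124), sizes that were 4.25-fold and 5.05-fold without E12 replicate 4, which read 1610 where the other E12 arrays read 426 and 406. The P0 call of Nnat was lost with only the stages compared (adjusted p = 0.081).

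Among the maternal genes, Grb10, an adaptor that restrains insulin and growth factor receptors, was 3.76-fold lower at P0 (93691_s_at, adjusted p = 3.37e-05) and 2.76-fold lower at E18 (adjusted p = 0.000487) against E12. A second Grb10 probe set gave -0.74 (log2, adjusted p = 0.195) at P0. Igf2r, the receptor that clears Igf2, read 361, 128 and 505 at P0 and 1159, 1306 and 1115 at E12, 4.17-fold lower (adjusted p = 0.000866, and 0.1 with only the stages compared). Gatm, an enzyme of creatine synthesis, was higher at P0, unlike Grb10 and Igf2r. It read 1012, 1648 and 2955 at P0, was at the floor on 2 of 3 E12 arrays, and was at least 22.8-fold higher at P0 (adjusted p = 5.69e-07) and at least 31.6-fold higher at E18 (adjusted p = 2.03e-07). Meg3, the maternal RNA beside Dlk1, gave log2 changes at P0 against E12 of 0.64 and 0.38 on its probe sets (adjusted p = 0.426 and 0.763). Kcnq1, a potassium channel gene of the cluster that holds Cdkn1c, gave 0.24 on 99322_at (adjusted p = 0.723), the probe set counted, and 0.76 on the dimmer 161796_r_at (adjusted p = 0.0019). Both genes are named with their values known.

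By E18, 6 of the 34 imprinted genes tested were lower than at E12 and 1, Gatm, was higher, beside 7.6% lower and 3.38% higher of all probe sets. Beside Mest, Nnat and Grb10, the 3 others had calls that were lost when single arrays were left out. Magel2 was 2.07-fold lower (adjusted p = 0.0124), and lost without E12 replicates 1 or 2 (0.0569 and 0.0675) or E18 replicate 3 (0.0607). Igf2r was 2.42-fold lower (adjusted p = 0.0297), a call lost under 10 alternatives that include each E12 and each E18 array left out (0.0612 to 0.109). Blcap, a small membrane protein whose gene surrounds that of Nnat, was 1.65-fold lower (adjusted p = 0.0171), and lost without E12 replicates 2 or 4 (0.0602 and 0.0729), without E18 replicate 1 (0.0753), with quantile normalization (0.0681) and with 75th percentile scaling (0.0899).

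**Figure D4:**
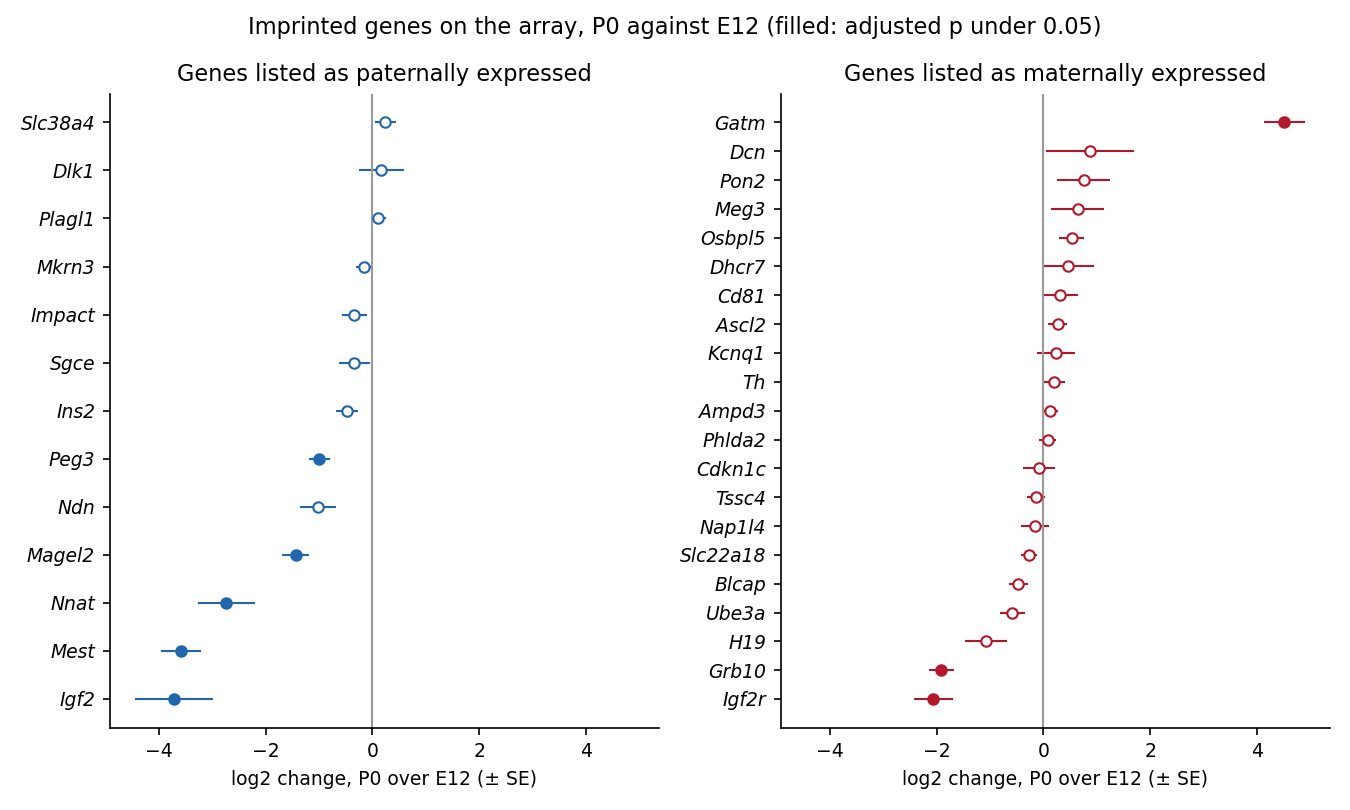
Fitted log2 change, P0 over E12, of each tested gene of both imprinted lists (1 probe set a gene, that with the highest mean). Bars are ± 1 SE and filled symbols have an adjusted p under 0.05. Of 34 genes tested, 7 are called lower, with Igf2 at -3.72 and Mest at -3.59, and Gatm at 4.51 is called higher. Of all probe sets, 11.8% are called lower and 4.53% higher.

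At the earlier step, E12 against E9.5, 4 of 34 imprinted genes rose and 1 fell. These shares are near those of all probe sets, 9.7% higher and 4.41% lower. Beside Cdkn1c, Osbpl5, an oxysterol-binding protein whose gene lies in the same imprinted cluster, rose 2.83-fold (adjusted p = 0.000257), a call that held in all alternatives. Magel2 (2.02-fold, adjusted p = 0.0122) and Sgce, a sarcoglycan (2.02-fold, adjusted p = 0.027), rose too. Each of these calls was lost under 4 alternatives. For Magel2 they were the GAPDH covariate (adjusted p = 0.0544), E9.5 replicate 3 left out (0.0553), and E12 replicates 1 and 2 left out (0.0606 and 0.0628). For Sgce they were E9.5 replicates 1 and 3 left out (0.0857 and 0.0892) and E12 replicates 1 and 4 left out (0.0832 and 0.0987). Plagl1, a zinc finger factor known to act on several imprinted genes, was at the floor on all 3 E12 arrays and at least 1.45-fold lower (adjusted p = 0.0161). That call was lost under 5 alternatives, among them E9.5 replicate 2 (0.0888) and E12 replicates 1 and 2 (0.0521 and 0.051) left out. Its second probe set did not pass (adjusted p = 0.171).

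Enzymes and factors that set or keep imprints were followed beside the members, 8 tested of 9 on the array. In P0 against E12, 1 rose and 2 fell, beside 4.53% higher and 11.8% lower of all probe sets. Dnmt3a, a DNA methyltransferase that sets new marks, read 156 on P0 replicate 1 and was below the floor on the 2 other P0 arrays, against 326, 412 and 364 at E12, and was at least 4.05-fold lower (adjusted p = 0.000197). It was at least 5.34-fold lower at E18 (adjusted p = 3.53e-05), with all 3 arrays at the floor. Zfp57, a zinc finger protein that guards imprints in the early embryo, rose 3.01-fold at P0 (adjusted p = 0.00182). Dnmt1, the methyltransferase that copies marks at replication, was 3.84-fold lower (adjusted p = 0.00975), and 5.92-fold without P0 replicate 4. That call was lost without P0 replicate 1 (adjusted p = 0.0568), without P0 replicate 3 (adjusted p = 0.05), with the GAPDH covariate (adjusted p = 0.106) and with only the stages compared (adjusted p = 0.132).

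Cdkn1c was set beside cyclins, kinases, replication and mitosis genes and the other Cdk inhibitors, 27 tested. In P0 against E12, 13 of them were lower and 1 higher, beside 11.8% and 4.53% of all probe sets. Their median log2 change was -0.62, beside -0.02 over all. The one that rose was another inhibitor, Cdkn1a, with 1086, 1542 and 1679 at P0 and 138, 182 and 69.2 at E12 (11.7-fold, adjusted p = 0.000571). Mcm3, a subunit of the replicative helicase, fell 3.91-fold (adjusted p = 0.000221). Both calls held in all alternatives. Bub1, a mitotic checkpoint kinase, fell 3.73-fold (adjusted p = 0.00687, lost with the GAPDH covariate at 0.0725 and with only the stages compared at 0.0513). Ccnd2, a D-type cyclin, was 7.49-fold lower (adjusted p = 0.00917), 17.3-fold without P0 replicate 4, and lost under 5 alternatives, among them without P0 replicates 1 or 3 (0.0533 and 0.0574) and with the GAPDH covariate (0.099).

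In E12 against E9.5, where Cdkn1c rose, 1 of the 27 rose and 6 fell, beside 9.7% higher and 4.41% lower of all probe sets. The one that rose was the inhibitor Cdkn1b (2.51-fold, adjusted p = 0.0137), a call lost without E9.5 replicate 3 (0.0739) or E12 replicate 2 (0.0698) and with the GAPDH covariate (0.0501). Rrm2, which helps to make deoxynucleotides, fell 4.27-fold (adjusted p = 0.00682), Mcm7, a helicase subunit, 3.21-fold (adjusted p = 0.00145) and Aurka, a mitotic kinase, 2.48-fold (adjusted p = 0.00824).

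Genes that work with Dlk1 and Gnas were followed as well. Of 7 genes of the Notch pathway, to whose ligands Dlk1 is related, 1 rose and 2 fell in P0 against E12. Of all probe sets, 4.53% rose and 11.8% fell. The Notch target Hey1 rose 2.72-fold (adjusted p = 0.000501, and 0.062 with only the stages compared), and the receptor Notch3 fell 3.37-fold (adjusted p = 7.68e-05). The receptor Notch1 was 2.00-fold lower (adjusted p = 0.0242), a call lost without any one of E12 replicates 1, 2 and 4 (0.0603, 0.0544 and 0.0799) or P0 replicate 1 (0.108), with the GAPDH covariate (0.218) and with only the stages compared (0.217). Of 12 other genes of stimulatory G protein signalling, 1 rose and 1 fell, beside the same shares of all probe sets. Adcy9, an adenylyl cyclase, rose 1.49-fold (adjusted p = 0.00931, and 0.0635 with the GAPDH covariate). Prkacb, a catalytic subunit of protein kinase A, was 2.27-fold lower (adjusted p = 0.0126), a call lost without E12 replicate 2 (0.0549) or P0 replicates 1 or 3 (0.0702 and 0.0572), with the GAPDH covariate (0.128) and with only the stages compared (0.136). Earlier, in E12 against E9.5, Crem, a transcription factor that responds to cyclic AMP, rose 4.45-fold (adjusted p = 3.15e-05), a call held in all alternatives.

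Markers of the labelled cells and of other cell types moved with some of these comparisons. Of 9 markers of Schwann cells and their precursors, 3 were higher and 2 lower in P0 against E12. The counts were the same in E18 against E12. Egr2, Mbp and Pmp22 were higher in both, and Fabp7 and Gfra3 lower. At P0, Mbp was 22.7-fold higher (adjusted p = 2.75e-09), and Fabp7 was 28.1-fold and Gfra3 8.12-fold lower (adjusted p = 5.77e-07 and 8.73e-08). Of all probe sets, 4.53% were higher and 11.8% lower in P0 against E12, and 3.38% and 7.6% in E18 against E12. In P0 against E12, 3 of 15 fibroblast markers tested were higher, 4 of 11 macrophage markers were lower with sums of 1978 to 2297 at P0 and 3052 to 5638 at E12, and 2 of 9 erythroid markers were lower with sums of 2469 to 2958 at P0 and 3664 to 10968 at E12. Of 13 macrophage markers on the array, 8 were above the floor on all 19 arrays, 3 on some, and 2, Lyz2 and Fcer1g, on none. In E18 against E12, where Mest was called, 3 of 15 fibroblast markers were higher, 4 of 11 macrophage markers were lower (sums of 2240 to 2704 at E18 and 3052 to 5638 at E12) and 2 of 9 erythroid markers were lower (sums of 3447 to 4128 at E18 and 3664 to 10968 at E12).

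In E12 against E9.5, where Cdkn1c was called, 5 of 15 fibroblast markers were higher, beside 9.7% of all probe sets. So were 5 of 11 macrophage markers, with sums of 3052 to 5638 at E12 and 1902 to 2257 at E9.5, among them Laptm5 (3.17-fold, adjusted p = 0.000605). Erythroid markers were higher for 3 of 9, with sums of 3664 to 10968 at E12 and 2545 to 2748 at E9.5, among them the embryonic globin Hbb-y (11.1-fold, adjusted p = 0.000793). Of 7 neural crest markers 3 were lower, beside 4.41% of all probe sets, among them Pax3 (5.57-fold, adjusted p = 1.41e-05). The part of these cells in the members' changes was not tested. Without E16 replicates 1 and 2 and P0 replicate 1, all of lot 1, the P0 falls against E12 stayed called, at -3.47 (log2) for Mest and -2.05, -1.46 and -0.85 for the Peg3 probe sets.

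Within stages, several members varied together across arrays. Deviations of log2 values from the stage mean were compared over the 19 arrays, which share their amplification and normalization, as a description. Dlk1 and Cdkn1c had a Pearson r of 0.73 (Spearman 0.66), Dlk1 and H19 0.65 (0.72), H19 and Cdkn1c 0.64 (0.68), Gnas 93271_s_at and Cdkn1c 0.66 (0.78), and H19 and Mest 0.66 (0.60). The arrays that pair high Dlk1 with high Cdkn1c and H19 include E16 replicate 2, at 570, 5616 and 6096. That array also has the highest GAPDH 3' to 5' ratio of the 19, at 9.12, where the other E16 arrays have 3.84 to 5.80. Its summed level of fibroblast markers is the highest of the 19 as well, at 35452, where the other E16 arrays have 28437 to 35173. All 16 fibroblast markers were above the floor on it. The part of RNA quality or of fibroblasts in these correlations was not tested. The summed fibroblast markers deviated with several members too, at an r of 0.63 with Cdkn1c, 0.70 with Gnas 93271_s_at, 0.60 with Dlk1 and 0.71 with Peg3 96765_at.

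**Figure D5:**
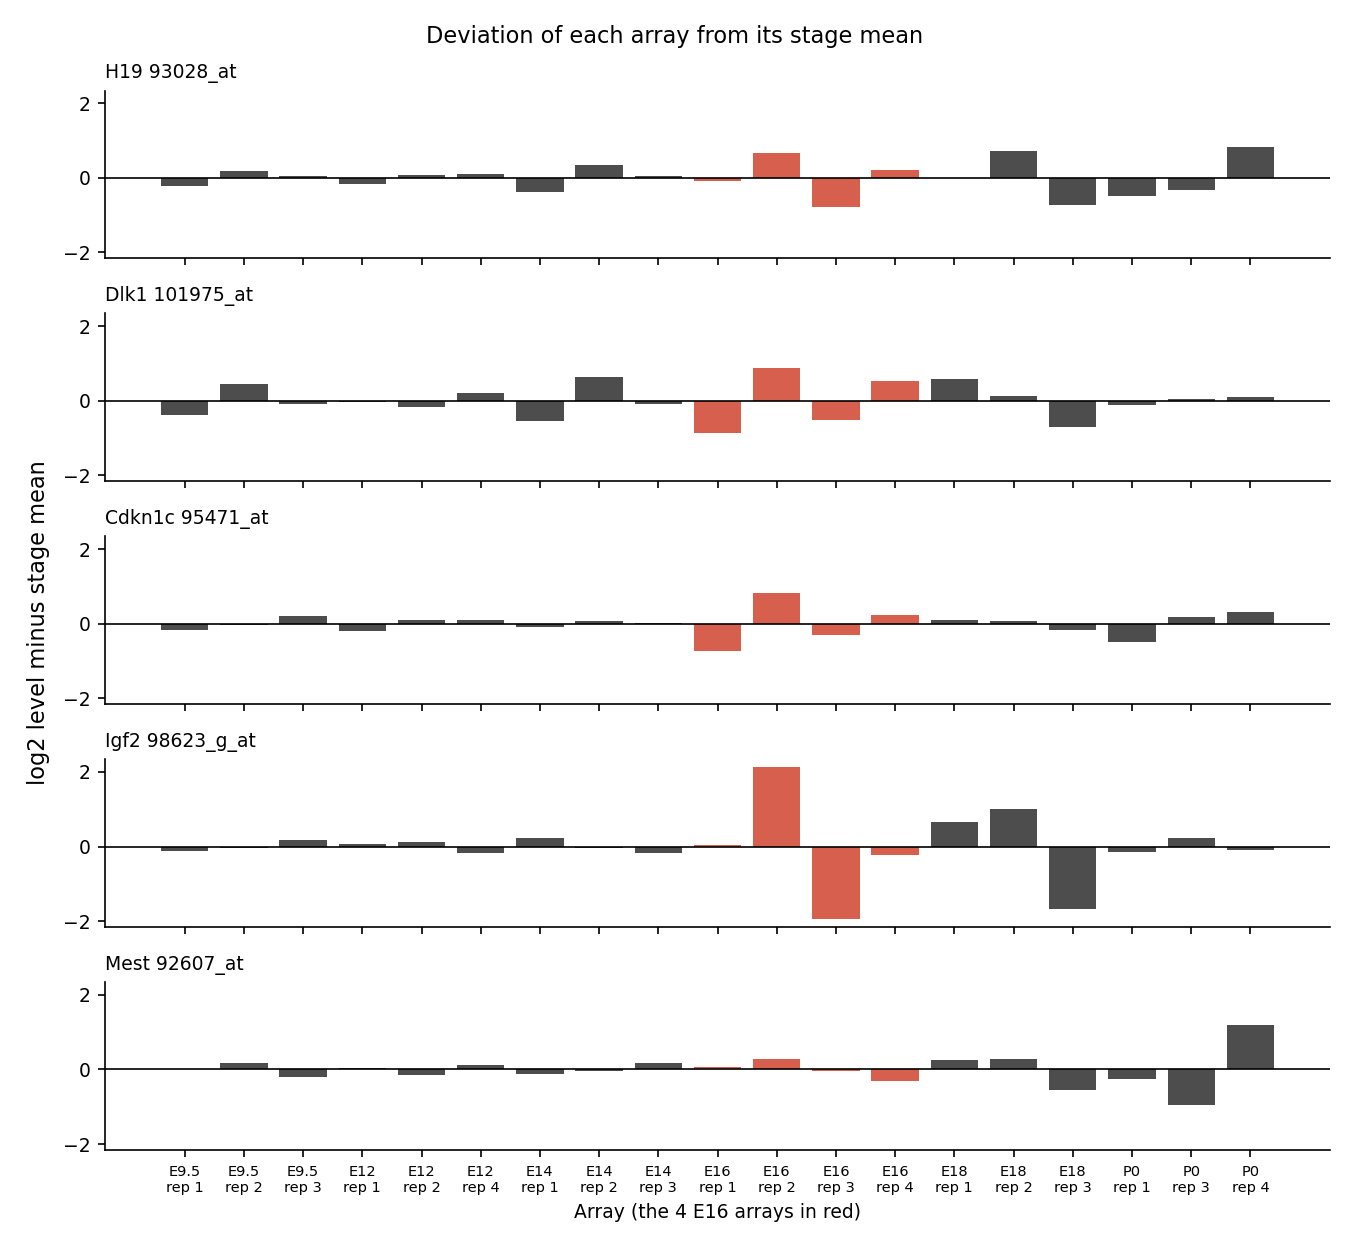
Log2 level minus the mean of its stage (vertical axis, log2 units) on each of 19 arrays for H19, Dlk1, Cdkn1c, Igf2 and Mest. Bars are arrays, with the 4 E16 arrays in red. E16 replicate 2 is above its stage mean in all 5 panels.

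The genes whose levels over the 19 arrays were most like those of each member were taken by Pearson r of log2 values, with stage differences included. For Mest they were Hmga2, a chromatin protein of embryonic cells (r = 0.949), Pls3, an actin bundling protein (0.945), Nrp1, a receptor for semaphorins (0.942), Pbx3, a homeobox factor (0.942), and Armcx2 (0.938). For Peg3 96765_at they were Bmpr1a, a BMP receptor (0.911), Pbx3 (0.909), Mest itself (0.886), Pola1, a DNA polymerase subunit (0.879), and Crabp1, a retinoic acid binding protein (0.874). Mest and Peg3 thus lie near each other by this measure. For Cdkn1c they were Ppp1r15a, a phosphatase subunit of the stress response (0.897), Cst3, a protease inhibitor (0.884), Pde1a, a phosphodiesterase (0.873), Mxd4 (0.859) and Sqstm1 (0.85).

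H19 was nearest to Igf2 (r = 0.804), followed by Gsk3a, a kinase (0.784), Peg3 (0.757), Mest (0.754) and Nynrin (0.713), so 3 of its 5 nearest were imprinted genes. Igf2, Peg3 and Mest were all called lower at P0 than at E12, and such stage differences enter these r values. For Gnas 93271_s_at the nearest genes were Wdsub1 (0.827), Cttn, an actin-binding protein (0.817), Kdelr1 (0.811), Col18a1, a collagen (0.807), and Men1 (0.779). For Dlk1 they were Cln6 (0.788), Thbs3 (0.779), Hikeshi (0.683), Actc1 (0.658) and Crybb2 (0.634), none of them imprinted genes of the lists. These r values describe the same arrays that chose the genes and carry no test.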

How the data were processed

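The files hold 1 value per probe set and array for 19 arrays. Per the labels, the authors ran dChip, which brought the arrays to a common intensity scale by a smoothing spline and, with probe sensitivities from 18 arrays, gave the deposited model-based intensity values, which are linear. The labels give no dChip version. Per the labels' protocols, RNA came from RNeasy kits and target from 2 rounds of in vitro transcription, and E9.5 replicates 2 and 3 carry no such text. Separate animals are not stated, so p-values cover the spread between these samples alone, and the number of arrays limits the precision.

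Probe sets were named by the array annotation: 10833 carried 1 symbol, 396 several, 1193 none and 66 were controls. Values under the floor (68.5, the 25th percentile) were set to it and log2 was taken. The 10414 probe sets above it on at least 3 arrays were tested. All 19 arrays entered 1 model of 6 stage means (limma 3.58.1, lmFit and eBayes, R 4.3.3, 13 residual degrees of freedom), with 2-sided Benjamini-Hochberg adjustment within each comparison over all probe sets and a threshold of 0.05. A fold whose lower stage has arrays at the floor is written "at least". The fit was tested on simulated data. Figures used Python 3.11.15, pandas 2.3.3 and matplotlib 3.10.9. Alternatives changed the floor, the filter, the scaling, the covariate, the block, the weights and the arrays.

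The members and gene lists were chosen with earlier results of these data known. Named genes are the members, up to 4 called genes a list by size of change (or 2 by level where none was called), Igf2, Igf2r and Grb10, the 5 genes most like each member, and the markers of highest mean. Other names, such as the markers at low levels, were chosen with their values known. Lot numbers equal replicate numbers except in E16 replicate 2, of lot 1. Deviations from the stage means correlated at 0.042 on average between 39 pairs of arrays that share a lot across stages (-0.354 to 0.714), beside -0.015 over 111 other pairs, so the numbers were not taken to pair the samples.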

Additional observations from a re-analysis of the deposited data

Results flagged for a closer look

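In groups of 4 arrays the gap between an extreme array and its nearest neighbour was set against the whole range of log2 values, and held to Dixon's 95% critical value. E16 is the one stage with 4 arrays, and 39 probe sets of the members and imprinted lists were examined, of which chance alone flags about 1 in 20. No member exceeded the critical value. The ratio was 0.928 for Dcn, a matrix proteoglycan of fibroblasts, whose E16 arrays read 357, 3395, 123 and 237, with replicate 2 high. It was 0.888 for Meg3, which read 169, 223, 217 and 649, with replicate 4 high. For Dhcr7, an enzyme of cholesterol synthesis, it was 0.887, with replicate 4 high, and for Ampd3, an AMP deaminase, 0.883, with replicate 1 high.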

How the results depend on the processing

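The calls of Mest in E18 and P0 against E12, of Mest in P0 against E9.5, and of Cdkn1c in E12 and P0 against E9.5 held in all 30 alternatives, and no called change of a member changed sign. Calls of Peg3 were lost as given above. Counts over the 9 probe sets moved as follows. For P0 against E12 the count, 4 in the chosen setting, was 5 with array weights and 3 with only the stages compared. For E12 against E9.5 the count, 1 in the chosen setting, was 2 with quantile normalization, 75th percentile scaling, the lot block, the replicate block and only the stages compared, and 3 with array weights. For E16 against E14, with 0, it was 2 with quantile normalization and with array weights, and 1 with 75th percentile scaling, the GAPDH covariate, the lot block, the replicate block, only the stages compared, and without E16 replicates 1 and 2 and P0 replicate 1, all of lot 1. For P0 against E18, with 0, it was 1 with quantile normalization and 75th percentile scaling and 4 with array weights. For E18 against E16, with 0, it was 2 with array weights and 1 without those 3 arrays, and for E14 against E12, with 0, it was 1 with array weights. For E18 against E12, with 1, it was 4 with array weights and 2 with only the stages compared and without those 3 arrays. For P0 against E9.5, with 5, it was 3 with the GAPDH covariate and 4 with only the stages compared. For the F-test over 6 stages, with 5, it was 7 with either block, and 6 with quantile normalization and array weights. Over the 5 nerve stages, with 5, it was 7 with the replicate block, 6 with array weights, and 4 with the lot block (Cdkn1c at 0.0548), no filter and only the stages compared. The imprinted lists together, with 5 calls in E12 against E9.5, gave 8 with the GAPDH covariate, 10 with array weights and 8 with only the stages compared, and in E18 against E12, with 7, gave 18 with array weights and 11 with only the stages compared. The replicate block gave -3.44 for Mest in P0 against E12 (log2, adjusted p = 2.36e-05) and ended no call of a member, while Dlk1 in E12 against E9.5 (0.0261), Mest in E16 against E14 (0.0284), and H19 and Dlk1 in both F-tests gained one. Leaving out each array in turn gave member counts of 1 to 2 in E12 against E9.5, 0 to 0 in E14 against E12, 0 to 1 in E16 against E14 and in E18 against E16, 0 to 3 in P0 against E18, 1 to 2 in E18 against E12, 4 to 5 in P0 against E12, 5 to 6 in P0 against E9.5, 5 to 6 in the F-test over 6 stages and 4 to 6 over 5 stages, and list counts of 2 to 6 in E12 against E9.5, 4 to 8 in E18 against E12 and 8 to 11 in P0 against E12. The causes were not tested.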
